A study of Mus musculus with 6 samples.

Results

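The protein disulfide isomerases (PDIs) are enzymes of the endoplasmic reticulum (ER) that form, break and rearrange disulfide bonds in newly made secreted and membrane proteins. Their transcripts were followed here as 10 genes picked by name, P4hb, Pdia3, Pdia4, Pdia5, Pdia6, Erp29, Erp44, Txndc5, Txndc11 and Tmx1. All 10 had a row among the 17385 genes of the authors' deposited table. The samples were hippocampus of C57BL/6 mice at 2 months of age, 3 control samples and 3 sATF6-KI samples. Controls carried Emx1-Cre, which drives Cre recombinase from a gene of the dorsal forebrain. Mice of the sATF6-KI group had that Cre together with Rosa26-sATF6-MER, a conditional allele that encodes the short form of ATF6 joined to MER, a modified part of the estrogen receptor. Fusions of this kind usually act only when a ligand is given, and ligand treatment is not stated in the labels. The whole hippocampus was sequenced, so cells in which the Cre does not act contributed RNA to both groups. In such bulk tissue, a change in the number of cells that express a gene and a change in RNA per cell cannot be told apart.

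ATF6 is an ER membrane protein that is cut in the Golgi when unfolded proteins build up, and its freed cytosolic part enters the nucleus and switches on genes for ER folding. The short form stands for that freed part. Many of its known target genes carry the ER stress response element (ERSE), a pair of boxes in which NF-Y binds the CCAAT end and ATF6 the CCACG end, at a fixed spacing. Most PDIs hold thioredoxin-like domains with a pair of active-site cysteines, and their oxidised state is renewed by ER oxidases. In neurons the family serves the folding of receptors, channels and adhesion proteins, many of which are held together by disulfides.

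The promoter sequences are given first, because they let the fold changes be read beside the letters that ATF6 is known to bind. RefSeq promoter windows (GRCm38.p6), from 250 bases before to 50 bases after a transcription start, were matched by symbol for 9 of the 10 genes, with 13 windows in all because some genes have several starts. Erp29 had no window. ERSE was searched on both strands as CCAAT, 9 free bases and CCACG, which makes 10 fixed letters. Pdia6 held the exact element, which 0.119% of 32851 mouse windows of this length hold. Pdia4, Pdia3 and Erp44 held a stretch that matched 9 of the 10 fixed letters, each missing a letter of the CCACG end. At least 9 are held by 1.504% of all windows and by 1.72% of all genes with a window. These 4 stretches follow, so that their fixed boxes, in capitals, can be compared, with the spacer in lower case.
Pdia6: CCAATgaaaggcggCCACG
Pdia4: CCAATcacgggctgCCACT
Pdia3: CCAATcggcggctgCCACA
Erp44: CCAATcccgaagagCCCCG

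The Pdia6 stretch lay at chr12:17266491-17266509, from -98 to -80 relative to the RefSeq start. The stretch of Pdia4 lay at chr6:47813602-47813620, from -108 to -90, and was read on the strand opposite to the gene. In Pdia3 the stretch sat closer to the start, at chr2:121413873-121413891, from -29 to -11. Erp44 had its stretch at chr4:48279743-48279761, and both of its windows, which overlap, contain it. The best stretches of P4hb, Pdia5, Txndc5 and Txndc11 matched 8 of the 10 letters, and the best of Tmx1 matched 7. At least 8 are matched by 17.9% of all windows and by 20.1% of all genes with a window. The distances hold for the RefSeq starts. GENCODE M21 begins the gene 82 bases further downstream for Pdia4 and 31 or 77 for the windows of Erp44, while it begins Pdia6 and Pdia3 upstream of the RefSeq start (-44 and -127 bases), which places the Pdia3 stretch inside its annotated gene. A match is a description of letters and does not show that the factor binds there.

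The 250 bases before the start are printed for 4 genes, each 5′ to 3′ on the gene's strand, with the ERSE stretch in capitals where one matched at least 9 letters. They were chosen as the gene with the largest rise (Pdia4), the gene with the exact element (Pdia6), a gene that rose without such a stretch (P4hb) and the gene with the smallest change (Tmx1). In Pdia4 the capitals are the reverse complement of the stretch above. The windows are Pdia4 at chr6:47813513-47813762 on the minus strand, Pdia6 at chr12:17266339-17266588 on the plus strand, P4hb at chr11:120573254-120573503 on the minus strand and Tmx1 at chr12:70452904-70453153 on the plus strand.
Pdia4: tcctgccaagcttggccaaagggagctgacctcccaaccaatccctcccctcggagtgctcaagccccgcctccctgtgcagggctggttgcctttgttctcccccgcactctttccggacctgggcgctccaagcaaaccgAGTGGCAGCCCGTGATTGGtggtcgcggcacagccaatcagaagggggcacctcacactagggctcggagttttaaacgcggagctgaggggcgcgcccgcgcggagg
Pdia6: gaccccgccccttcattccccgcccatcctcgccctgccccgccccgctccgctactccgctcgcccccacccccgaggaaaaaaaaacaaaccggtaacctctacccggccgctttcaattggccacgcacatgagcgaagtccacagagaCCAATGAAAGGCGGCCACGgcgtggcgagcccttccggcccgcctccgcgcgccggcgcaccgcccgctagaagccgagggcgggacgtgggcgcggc
P4hb: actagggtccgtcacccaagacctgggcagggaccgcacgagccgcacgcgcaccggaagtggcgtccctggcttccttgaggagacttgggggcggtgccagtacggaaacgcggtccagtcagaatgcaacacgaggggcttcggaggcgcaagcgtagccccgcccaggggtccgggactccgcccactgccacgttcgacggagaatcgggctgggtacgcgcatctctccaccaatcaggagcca
Tmx1: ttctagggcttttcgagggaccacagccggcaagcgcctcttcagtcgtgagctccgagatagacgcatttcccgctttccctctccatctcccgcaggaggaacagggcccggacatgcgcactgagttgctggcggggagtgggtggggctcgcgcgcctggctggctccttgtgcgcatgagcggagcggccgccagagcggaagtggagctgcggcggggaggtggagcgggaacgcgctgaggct

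The ATF6 box alone, CCACG on either strand, was in windows of 7 of the 9 genes. It is common, being held by 35.5% of all genes with a window. By windows, 9 of 13 held it, against 32.8% of all windows. P4hb held 2 copies and Pdia6 held 4, of which 1 is the end of its ERSE. Neither Pdia3 nor Tmx1 held CCACG, and the only copy of Pdia4 lay after the start, from 36 to 40. The core of the unfolded protein response element, TGACGTGG, contains CCACG on its other strand. It was found for 1 of the starts of Txndc11 and for 1 of the 3 starts of Txndc5. Of all windows 0.676% hold it, and of all genes with a window 0.714%. ERSE-II, ATTGG, 1 free base and CCACG, was found in none of the 13 windows and in 0.0365% of all windows.

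**Figure D1:**
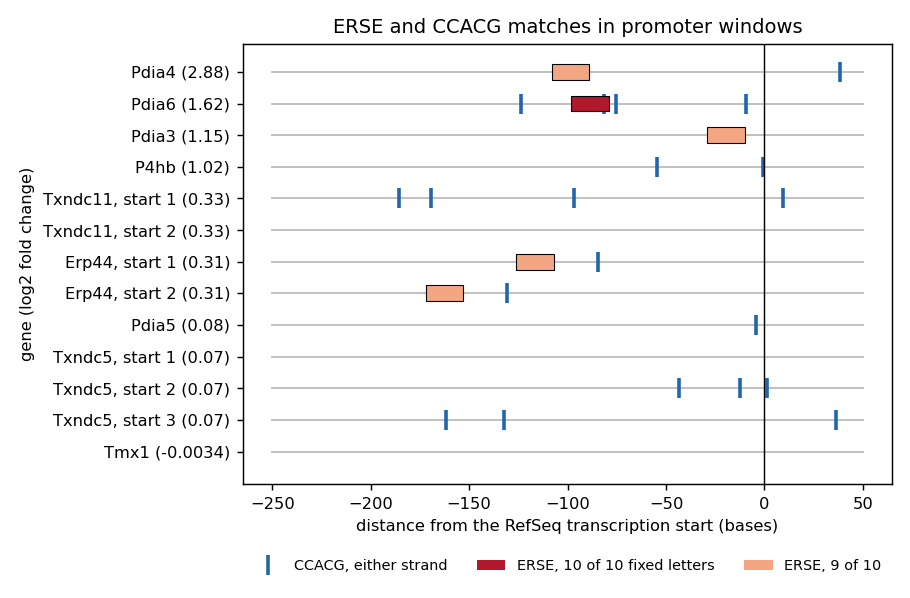
Matches in the promoter windows of 9 PDI genes, ordered by log2 fold change (in brackets after each name). The x axis is the distance in bases from the RefSeq start; boxes are ERSE stretches with 10 or 9 of 10 fixed letters and ticks are CCACG on either strand. Of the 4 genes with the largest fold changes that have a window, 3 carry a box and P4hb carries ticks alone. Only the box of Pdia6 holds CCACG in full, and each box with 9 letters misses a letter of that end. Erp44, at a log2 fold change of 0.31, also carries a box, and Txndc11, at 0.33, carries none. Of all windows, 1.504% hold at least 9 of the letters, and of all genes with a window, 1.72% do.

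In sATF6-KI hippocampus 7 of the 10 PDI transcripts were higher than in control and none was lower, at the authors' adjusted p under 0.05 from DESeq2. Of all 17385 genes, 3.41% were called higher and 1.93% lower, 5.34% in all. With a fold change of at least 1.5 required as well, 5 of the 10 were higher, against 1.18% of all genes. Pdia4 rose most, and Pdia6, Pdia3 and P4hb each rose at least 2.03-fold per the authors' deposited table. Erp29, Txndc11 and Erp44 rose by less, while Pdia5, Txndc5 and Tmx1 did not pass the test. The median log2 fold change of the 10 was 0.47, against 0.0050 over all genes. Fold changes below are sATF6-KI over control, values after ± are Wald standard errors of a log2 fold change, ranges are 95% Wald intervals, and the mean signal is the authors' mean normalized expression over all libraries. The deposited columns for single libraries could not be tied to the sample labels, so no value per sample is printed.

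**Figure D2:**
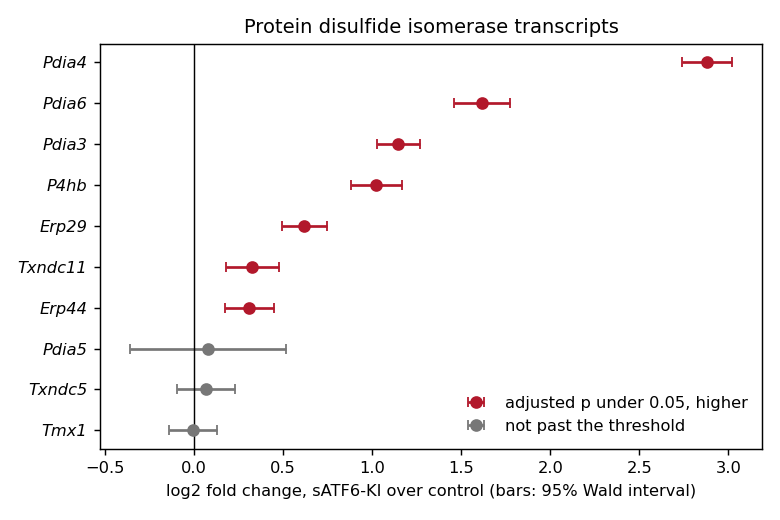
Log2 fold change of each PDI transcript, sATF6-KI over control, with 95% Wald intervals as bars (3 samples a group). The 7 red points have an adjusted p under 0.05, and the intervals of Pdia5, Txndc5 and Tmx1 include 0.

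The 4 PDIs best known as oxidoreductases and isomerases of the ER lumen led the order. Pdia4 encodes ERp72, which carries more thioredoxin-like active sites than the classical enzyme. It was 7.36-fold higher per the authors' deposited table (6.67 to 8.12), a log2 fold change of 2.88 ± 0.07 with a mean signal of 7243, and the authors' p is listed as 0. Only 0.127% of genes had a larger fold change. Its span, chr6:47796141-47813430, also contains Mir704 on the same strand, which had a mean signal of 3.36 and a log2 fold change of 5.24 ± 2.09 per the authors' deposited table (adjusted p = 0.136 from DESeq2).

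Pdia6 encodes P5, an isomerase known to bind the ER chaperone BiP and to damp signalling by the stress sensors IRE1 and PERK. It was 3.07-fold higher per the authors' deposited table (2.75 to 3.42), a log2 fold change of 1.62 ± 0.08 with a mean signal of 8243 and adjusted p = 8.11e-88 from DESeq2. The gene lies at chr12:17266545-17284770 and holds the exact ERSE shown above.

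Pdia3 encodes ERp57, the isomerase that works with the lectins calnexin and calreticulin on glycoproteins. Per the authors' deposited table it was 2.22-fold higher (2.04 to 2.41), with a mean signal of 12737, the highest of the 10, and adjusted p = 1.53e-75 from DESeq2. It lies at chr2:121413775-121438687. P4hb, at chr11:120560298-120573253, encodes the classical PDI, which is also the beta subunit of collagen prolyl 4-hydroxylase and a subunit of the microsomal triglyceride transfer protein. The authors' deposited table gives it at 2.03-fold (1.84 to 2.25), with a mean signal of 6855 and adjusted p = 1.03e-40 from DESeq2.

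Erp29 and Erp44 have roles beside catalysis. Erp29, at chr5:121428590-121452506, encodes a family member that lacks the active-site cysteine pair and acts as a folding escort. It was 1.54-fold higher per the authors' deposited table (1.41 to 1.68), a log2 fold change of 0.62 ± 0.06 with adjusted p = 1.10e-19 from DESeq2. Tmem116, on the opposite strand, shares 180 bases of annotated exon with Erp29 and had the same log2 fold change, 0.62 ± 0.19, per the authors' deposited table (adjusted p = 0.0256 from DESeq2). Naa25, also opposite and sharing 2210 exon bases, was at -0.14 ± 0.07. The libraries are stranded per the labels' protocols, but no source used here gives the strand setting of the counting, so the part of such shared bases in the values was not tested.

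Erp44 encodes a protein that cycles to the early Golgi and brings back ER oxidases and unfinished clients by a disulfide bond. It was 1.24-fold higher per the authors' deposited table (1.13 to 1.37), a log2 fold change of 0.31 ± 0.07 with adjusted p = 0.000627 from DESeq2. Its span is chr4:48193323-48279558. The call ended when the DESeq2 p was adjusted by Bonferroni over all genes (adjusted p = 0.192).

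Among the remaining members 1 rose. Txndc11, at chr16:11074911-11134650, encodes a membrane-bound thioredoxin-like protein known to bind the dual oxidases in the thyroid. The authors' deposited table has it 1.26-fold higher (1.13 to 1.39), a log2 fold change of 0.33 ± 0.08 with adjusted p = 0.00102 from DESeq2. This call too ended when the DESeq2 p was adjusted by Bonferroni (adjusted p = 0.338).

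Txndc5 encodes ERp46, a rapid donor of disulfides, and lies at chr13:38500079-38528824. It was at 0.07 ± 0.08 on the log2 scale per the authors' deposited table (adjusted p = 0.796 from DESeq2), an interval of 0.94-fold to 1.17-fold. Bmp6, which overlaps its end on the opposite strand by 224 exon bases, was 1.496-fold higher per the authors' deposited table. Tmx1, at chr12:70453095-70468040, encodes a membrane-anchored PDI that prefers membrane-bound clients. Its log2 fold change was -0.0034 ± 0.07 per the authors' deposited table (adjusted p = 0.992 from DESeq2). That interval, 0.91-fold to 1.09-fold, leaves out a change as large as that of any of the 7 genes called higher.

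Pdia5 encodes PDIR, known from human cells to act on the disulfides of ATF6 during its activation. It lies at chr16:35397312-35490873 and had the lowest mean signal of the 10, 79.9 per the authors' deposited table. Its log2 fold change of 0.08 ± 0.22 per the authors' deposited table (adjusted p = 0.930 from DESeq2) has the widest interval, 0.78-fold to 1.43-fold. A rise of the size seen for Erp44 or Txndc11 was therefore not detectable for Pdia5 at this signal.

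**Figure D3:**
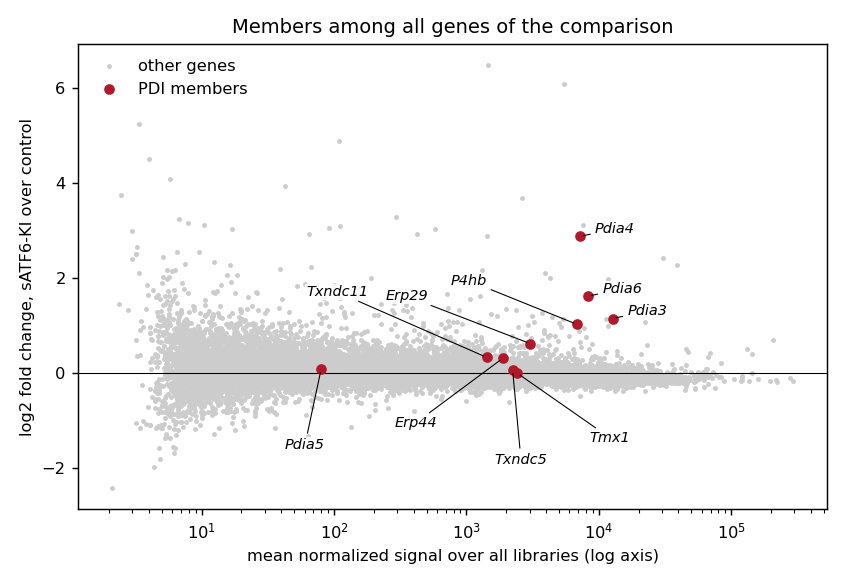
Log2 fold change against the authors' mean normalized signal over all libraries (log axis) for the 17385 genes, with the 10 PDI genes in red. Pdia4, Pdia6, Pdia3 and P4hb stand above the cloud at mean signals from 6855 to 12737, while Pdia5 lies at 79.9, where the cloud is wide.

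The order of the fold changes was resolved in part. With the errors of different genes taken as independent, the log2 fold change of Pdia4 exceeded that of Pdia6 by 1.26 (95% interval 1.05 to 1.48), and that of Pdia6 exceeded that of Pdia3 by 0.47 (0.27 to 0.67). Pdia3 and P4hb did not differ beyond their errors, with a difference of 0.12 (-0.07 to 0.31). P4hb was above Erp29 by 0.40 (0.21 to 0.60) and Erp29 above Txndc11 by 0.29 (0.09 to 0.49). From Txndc11 down, no gene differed beyond its errors from the next in the order. Only neighbours were compared, and genes further apart can differ. The intervals of Txndc11 (1.13-fold to 1.39-fold) and Erp44 (1.13-fold to 1.37-fold) lay above that of Tmx1 (0.91-fold to 1.09-fold). Measurements from the same samples may not be independent, so these intervals are approximate.

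The levels of the 10 transcripts can be compared once they are divided by length. The group means implied by the authors' mean signal and fold change, with 3 samples a group, were divided by the kilobases of merged exons in GENCODE M21 (GRCm38), and they carry no error of their own. In control, Pdia3 was the most abundant at an implied level of 2524 per kilobase, followed by P4hb at 1579, Pdia6 at 1083, Tmx1 at 734 and Pdia4 at 722. Erp44 at 492 and Txndc5 at 485 came next, then Erp29 at 264 and Txndc11 at 143, and Pdia5 was lowest at 28.0 per kilobase. By this length Pdia3 stood at the 96.9th percentile of implied control levels over the genes with a length and Pdia5 at the 24.4th.

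In sATF6-KI the implied level of Pdia4 was 5316 per kilobase, beside 5591 for Pdia3, 3319 for Pdia6 and 3213 for P4hb. Pdia4 thus went from 0.286 times the level of Pdia3 in control to 0.951 times in sATF6-KI. The summed level of the 10 transcripts was 2.47 times as high in sATF6-KI, 19906 against 8055 per kilobase. Of that sum, Pdia4 made up 8.97% in control and 26.7% in sATF6-KI, while the share of Tmx1 was 9.12% and 3.68% and that of Txndc5 6.03% and 2.56%. Pdia4, Pdia6, Pdia3 and P4hb together held 73.3% of the sum in control and 87.6% in sATF6-KI, and accounted for 97.3% of the added level. Levels and their order depend on the length used: per kilobase of the longest annotated transcript, 5 of the 10 genes, Pdia6, Erp29, Txndc11, Pdia5 and Txndc5, moved up by over 1.5 times. Pdia6 then stood above P4hb in control, at 1864 against 1579, and above Pdia4 in sATF6-KI, at 5715 against 5316, with Pdia3 at 6336. Txndc5 then stood above Pdia4 and Erp44 in control, at 767 against 722 and 641. By that length Pdia4 went from 0.253 to 0.839 times the level of Pdia3, and the summed level was 2.39 times as high in sATF6-KI.

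**Figure D4:**
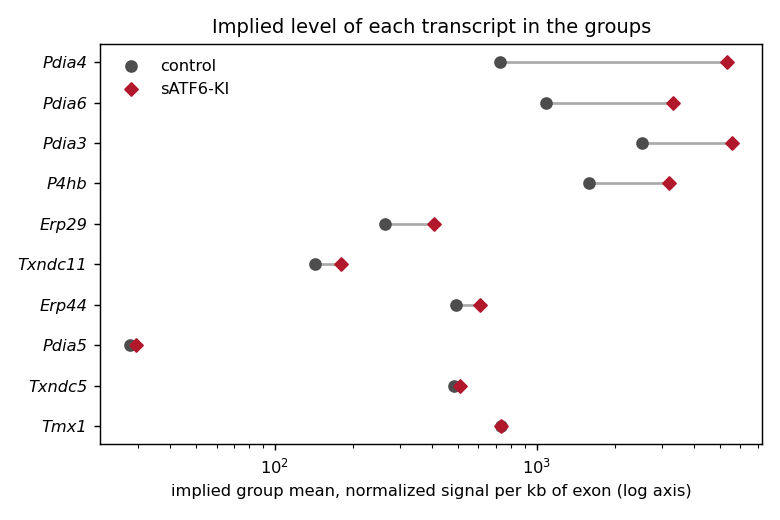
Implied group mean of each PDI transcript per kilobase of merged exon (log axis), control as grey circles and sATF6-KI as red diamonds, from the authors' mean signal and fold change, without error bars because the deposited columns for single libraries could not be tied to the groups. Pdia4 moves from 722 to 5316 and comes near Pdia3, while both symbols of Tmx1 coincide near 734.

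Further genes of the family and of its pathway were looked at by lists. These lists, like the members, were chosen with earlier results of these data known, so their contrast with the members was not tested. Of 14 other PDI family genes 10 had a row in the table. None of the 10 was called by the authors' DESeq2 test in either direction, nor at an unadjusted p under 0.05. Of all genes, 5.34% were called in either direction, and no call among 10 genes is near that share. The median log2 fold change of the 10 was -0.06, and they include the membrane-bound Tmx2, Tmx3 and Tmx4 and Dnajc10, a reductase that serves ER-associated degradation. Txndc12, which encodes ERp18 and was nearest to the threshold, was at -0.12 ± 0.09 on the log2 scale per the authors' deposited table (adjusted p = 0.558 from DESeq2). Mean signals in this list ran from 11.3 for Erp27 to 13392 for Tmx4 per the authors' deposited table. Casq1 and Casq2 were at 16.7 and 77.5. The Wald standard error was 0.61 for Erp27 and 0.06 for Tmx4, and the part of low signal in the missing calls was not tested.

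Among 9 ER oxidases and peroxidases, which renew or spare the oxidised PDIs, 2 were higher and none lower. The shares over all genes were 3.41% and 1.93%. The median log2 fold change of the list was 0.07. Ero1lb, an oxidase of PDI, was 1.51-fold higher per the authors' deposited table (adjusted p = 8.85e-08 from DESeq2) and Gpx8, an ER peroxidase, was at 0.40 ± 0.12 on the log2 scale (adjusted p = 0.0250 from DESeq2). Ero1l, the paralog of Ero1lb, was at -0.07 ± 0.08 per the authors' deposited table, and Qsox1, nearest to the threshold, at 0.10 ± 0.09.

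Of 16 partners of named members 4 were higher and none lower, against 3.41% and 1.93% of all genes. Their median log2 fold change was 0.11. Hspa5, the gene for BiP, rose by 2.43 ± 0.09 on the log2 scale per the authors' deposited table, and the Pdia3 partners Calr and Canx, for calreticulin and calnexin, rose by 1.08 ± 0.06 and 0.41 ± 0.06. Uggt1, the glycoprotein folding sensor, rose by 0.73 ± 0.07 per the authors' deposited table. Other listed partners were not called by DESeq2: Tapbp was at 0.02 ± 0.08, Tapbpl at 0.17 ± 0.16, Erap1 at 0.08 ± 0.12 and Ganab at -0.03 ± 0.06. The alpha subunits that pair with P4hb in prolyl 4-hydroxylase were not called, with P4ha1 at -0.08 ± 0.08, P4ha2 at 0.14 ± 0.10 and P4ha3 at -0.03 ± 0.23 per the authors' deposited table, and Mttp, its other partner, was at 0.02 ± 0.11. The KDEL receptors, which return many lumenal PDIs to the ER, were not called either, with Kdelr1 at -0.05 ± 0.08, Kdelr2 at 0.12 ± 0.09 and Kdelr3 at 0.10 ± 0.40 per the authors' deposited table. Sumf1, a client that Erp44 retrieves, was nearest to the threshold at 0.12 ± 0.08 (adjusted p = 0.542 from DESeq2).

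The thioredoxin system outside the ER gave no call in 14 genes by the authors' DESeq2 test, and its median log2 fold change was -0.06. Over all genes 3.41% were called higher and 1.93% lower, and no call in 14 genes is near these shares. At an unadjusted p under 0.05, 1425 of all 17385 genes were higher and 1319 lower, and 1 of these 14 was higher. That gene, Nxn, for nucleoredoxin, was at 0.23 ± 0.11 per the authors' deposited table (adjusted p = 0.256 from DESeq2). Txn1 and Txnrd1, the cytosolic thioredoxin and its reductase, were at -0.07 ± 0.08 and -0.03 ± 0.07 per the authors' deposited table.

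**Figure D5:**
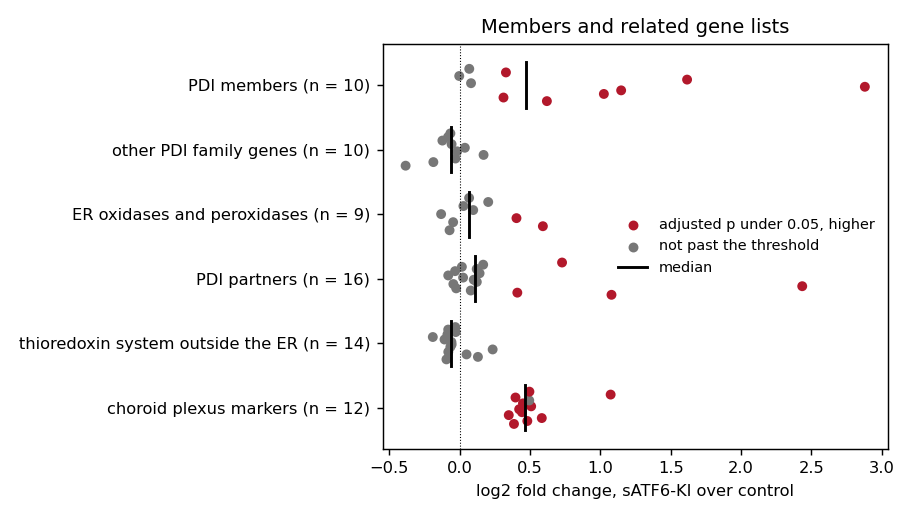
Log2 fold change, sATF6-KI over control, of each gene in the PDI members and 5 related lists, with list medians as black bars; red points have an adjusted p under 0.05 and grey points do not. The medians are 0.47 for the PDI members, 0.07 for ER oxidases and peroxidases, 0.11 for partners, -0.06 for both other PDI family genes and the thioredoxin system outside the ER, and 0.47 for choroid plexus markers. Members and lists were chosen with earlier results of these data known.

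Marker lists were read beside these results. Over all genes, 3.41% were called higher and 1.93% lower, and the median log2 fold change was 0.0050. Markers of glutamatergic neurons were all in the table, with mean signals from 930 to 159768, and 1 of 9 was lower (4 lower at an unadjusted p under 0.05). Their median log2 fold change was -0.13. They include Prox1, a marker of dentate granule cells. Choroid plexus markers were higher in 11 of 12, with a median log2 fold change of 0.47, from Folr1 at 1.27-fold to Tmem72 at 2.10-fold per the authors' deposited table. Pdia4, Pdia6, Pdia3, P4hb and Erp29 each had a larger log2 fold change than that median, and Txndc11 and Erp44 a smaller one. The median is not the upper end of the list: Tmem72, at 1.07, was above P4hb at 1.02 and Erp29 at 0.62. The part of choroid plexus tissue in the PDI changes was not tested. Of the other lists, 1 of 6 endothelial and mural markers was higher (3 at an unadjusted p under 0.05), 1 of 7 astrocyte markers was lower (4 at an unadjusted p under 0.05) and 1 of 6 microglia markers was lower (1 so). By the authors' DESeq2 test none of 7 GABAergic interneuron markers (none at an unadjusted p under 0.05 either) or 6 oligodendrocyte markers (2 lower at an unadjusted p under 0.05) was called. Median log2 fold changes were 0.15 for endothelial and mural, -0.16 for astrocyte, -0.04 for microglia, -0.03 for GABAergic interneuron and -0.11 for oligodendrocyte markers.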

How the data were processed

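Hippocampal messenger RNA was sequenced in 3 control and 3 sATF6-KI samples with a stranded kit, per the labels' protocols. The submitters' processing notes name DESeq2, HTSeq, STAR, cutadapt and Trim Galore. No source used here gives their versions, the genome build or any filter on low genes. The authors' deposited table holds 1 comparison for 17385 genes. Per the file headers it gives a mean normalized expression signal, a log2 fold change, a Wald statistic (a score with no fixed range), a p-value and its adjusted form. Another 6 columns, of values for single libraries, have names that fit no sample label, so they were not used and the depth per sample is unknown here. The labels do not say that each sample is a separate animal, so p-values measure the spread between these samples, which may be technical.

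Recomputed from the Wald statistic, the deposited p-values differed by at most 2.89e-15, and the adjusted ones, by Benjamini-Hochberg over the table, by at most 3.89e-15. The deposited error, a score on the log2 scale, was smaller than the Wald standard error, which is the log2 fold change over the Wald statistic (median ratio 1.21), and the Wald standard error is used for 95% intervals. A call is the authors' adjusted p under 0.05 from DESeq2. The planned edgeR test needs counts per labelled sample and was not run. Named genes are all members and, outside the cell type marker lists, the called genes of each list and the uncalled gene nearest to the threshold. Of the marker lists, the called choroid plexus genes with the largest and smallest fold are named. Others beside these were named after their values were seen. The members, lists and motifs were chosen with earlier results of these data known. Of the table's gene IDs, 17166 matched GENCODE M21 (GRCm38), which gave coordinates and lengths; motifs were searched in RefSeq promoter windows. Planned protein features were not computed. Intervals and a motif search were tested on simulated data. The work used numpy 2.4.6, matplotlib 3.10.9, scipy 1.17.1 and pandas 2.3.3 in Python 3.11.15. Alternative thresholds, filters, lengths and motif rules were tried.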

Additional observations from a re-analysis of the deposited data

How the results depend on the processing

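No paired analysis was possible because the labels tie none of the library columns to a sample; other normalizations, count filters, pseudocounts and fits without single replicates were not run for the same reason. The alternative to the exact ERSE and the other length were chosen after seeing the data. Of the 10 PDI genes, 7 were higher at an adjusted p threshold of 0.01. With a mean signal of at least 10, with protein-coding genes alone and with the deposited error, 7 were higher too. The signal and protein-coding filters removed no member, the lowest signal being 79.9 for Pdia5. The deposited error is smaller than the Wald standard error, which loosens the call by construction. With Bonferroni or a fold change of at least 1.5, 5 were higher, and Erp44 and Txndc11 ended. None was lower under any of these. Over all genes, 592 were higher and 336 lower, against 379 and 135 at a threshold of 0.01, 234 and 34 with Bonferroni, and 206 and 11 with a minimum fold change of 1.5, which tighten the call by construction. The 2 higher ER oxidases and peroxidases were 1 at a threshold of 0.01, without Gpx8. The 1 gene with an exact ERSE became 4 when 1 of the 10 fixed letters could change. With the longest transcript as length, the share of Pdia4 in the summed level was 7.15% in control and 21.99% in sATF6-KI, and the levels of 5 members moved by over 1.5 times. Low mean signal limits Pdia5 most.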

Other observations

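The exact ERSE seen in the Pdia6 window was looked up for all genes of the table that have a RefSeq window under the same symbol. Of 11800 such genes, 20 held the exact element in a window, and 12 of these were called higher in the authors' deposited table and 0 lower. At least 9 of the 10 fixed letters were held by 272 genes, of which 57 were called higher and 1 lower. Both sets include Pdia6, which prompted the look-up, and the larger set also includes Pdia4, Pdia3 and Erp44. Over the 11800 genes, 443 were called higher and 251 lower. These are counts without a test, and the windows cover 300 bases at each annotated start, so elements further away were not looked at.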
